A study of Mus musculus with 9 samples.

Results

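The genes described here encode the core proteins of the spliceosomal small nuclear ribonucleoproteins (snRNPs). They were chosen by symbol (Snrp, Sf3a, Sf3b, Prpf and Lsm genes, each name continued by its number or letter), and Snrpn was left out. The choice gave 46 genes of the 24318 listed, and all 46 were measured well enough to be tested in both comparisons. RNA-seq had been carried out on ribosomal RNA-depleted total RNA from N2A cells, a mouse neuroblastoma line, with 3 libraries per group and 9 in all. The groups were cells transfected with a scramble siRNA (siScramble, genotype given as WT), an siRNA against EXOSC3 (siEXOSC3, given as EXOSC3 knockdown) or an siRNA against DDX1 (siDDX1, given as DDX1 knockdown). All 9 libraries came from the same line, transfected with Lipofectamine and otherwise labelled untreated, and the replicates were separate culture plates. EXOSC3 is a cap subunit of the RNA exosome, which trims and degrades many kinds of nuclear and cytoplasmic RNA, and DDX1 is a DEAD-box RNA helicase. The question put to these genes was whether depletion of either protein was accompanied by a change in the transcripts of the splicing machinery.

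The snRNPs remove introns from pre-mRNA. The U1, U2, U4 and U5 snRNAs each carry a ring of Sm proteins, and U6 carries a ring of the related Lsm proteins. The U1 snRNP recognises the 5′ splice site, the U2 snRNP with its SF3A and SF3B subcomplexes binds the branch site, and the U4/U6.U5 tri-snRNP then joins to form the complex that is activated for catalysis. Several matches of the symbol rule act elsewhere. Lsm1 replaces Lsm8 in the cytoplasmic ring of mRNA decay, Lsm10 and Lsm11 belong to the U7 snRNP of histone mRNA processing, and Lsm14a and Lsm14b are found in P-bodies.

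Values were FPKM per gene and library, which are scaled for transcript length and library size. Levels of different genes are compared on that scale only roughly, given the relation to length and the genomic copies described below. The absolute depth of the libraries is unknown from FPKM, and fewer cells of a kind and less RNA per cell cannot be told apart. The targeted genes followed the labels. Exosc3 stood at 45.8, 43.8 and 42.7 FPKM in scramble and at 6.84, 7.68 and 6.01 FPKM in siEXOSC3, which is 15.5% ± 1.90 of scramble (SD, n = 3). Ddx1 stood at 129.6, 126 and 119 FPKM in scramble and at 28.05, 28.7 and 34.8 FPKM in siDDX1, which is 24.4% ± 2.99 (SD, n = 3). Neither passed the test in the other knockdown (limma, adjusted p = 0.95 for Ddx1 and 0.72 for Exosc3). All 10 markers of N2A and sympathetic neuroblasts were expressed, among them Phox2a, Hand2 and Gata2. Their summed level was 449 to 513 FPKM in scramble and 611 to 667 FPKM in siEXOSC3, and in the siDDX1 comparison 445 to 507 FPKM in scramble and 415 to 487 FPKM in siDDX1. Of 11 markers of fibroblasts, leukocytes, endothelium, glia and keratinocytes, 6 (Col1a2, Col3a1, Ptprc, Aqp4, Krt5 and Krt14) were at 0 in all 6 libraries of the siEXOSC3 comparison. The summed level of the 11 was 4.02 to 4.73 FPKM in scramble and 6.52 to 9.53 FPKM in siEXOSC3, most of it Pecam1, which rose from 4.13 ± 0.343 to 7.28 ± 1.58 FPKM (SD, n = 3). In the siDDX1 comparison that sum was 3.99 to 4.68 FPKM in scramble and 5.17 to 5.94 FPKM in siDDX1, again without overlap, and the part of such cells in the results was not tested.

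In scramble cells the 3 most highly expressed of the 46 genes belonged to the Sm ring. Snrpg, which encodes SmG, was the highest at 867, 788 and 769.6 FPKM, and Snrpe was next (667 ± 81.7 FPKM, SD, n = 3), without overlap of their libraries, then Snrpd3 (552 ± 22.9 FPKM, SD, n = 3). The lowest of the ring was Snrpb, which encodes the SmB and SmB′ proteins, at 122, 117 and 124 FPKM. The ring members are present in equal copies in the particle, whereas their transcripts spanned 121 to 808 FPKM. Among U1 proteins Snrpc was the highest at 211, 205 and 203 FPKM and Prpf40b the lowest at 7.34, 8.26 and 7.97 FPKM. The U2 proteins Snrpa1 (78.8, 69.97 and 82.2 FPKM) and Snrpb2 (72.01, 79.6 and 68.7 FPKM) overlapped in their libraries, so their order is not resolved. The SF3A genes were close to each other, from 65.5, 63.7 and 62.6 FPKM for Sf3a1 to 72.05, 68.5 and 70.7 FPKM for Sf3a3, with Sf3a2 overlapping both. Within SF3B, Sf3b3 stood out at 141, 137 and 134 FPKM and Sf3b5 had the lowest mean at 56.5, 55.8 and 61.8 FPKM, its libraries overlapping those of Sf3b4 and Sf3b6, so the order of these is not resolved.

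The tri-snRNP genes lay lower, with a median of 38.9 FPKM. Prpf8, whose product forms the centre of the U5 snRNP and of the catalytic core, was the highest of them at 102, 98.8 and 98.6 FPKM, and Prpf4 the lowest at 9.65, 9.38 and 9.31 FPKM. Prpf19, the ubiquitin ligase of the Prp19 complex, stood at 22.9, 23.7 and 23.7 FPKM and Prpf18, a factor of the second catalytic step, at 20.6, 20.5 and 20.1 FPKM. The U6 ring spanned 318, 298 and 289.6 FPKM for Lsm7 down to 17.5, 17.01 and 16.9 FPKM for Lsm6. Outside that ring Lsm12 was the highest at 85.5, 86.8 and 93.3 FPKM and Lsm11, of the U7 snRNP, the lowest of all 46 at 6.57, 6.29 and 6.16 FPKM. Across the 46 genes FPKM in scramble ran against exonic length (Spearman -0.52, across genes of the same libraries). Sequences of at least 200 bases with at least 95% identity to the transcript lay elsewhere in the genome for 9 genes, among them Snrpg, Snrpe, Snrpd1, Snrpd2 and Lsm7, so reads of these could have been shared with the copies.

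**Figure D1:**
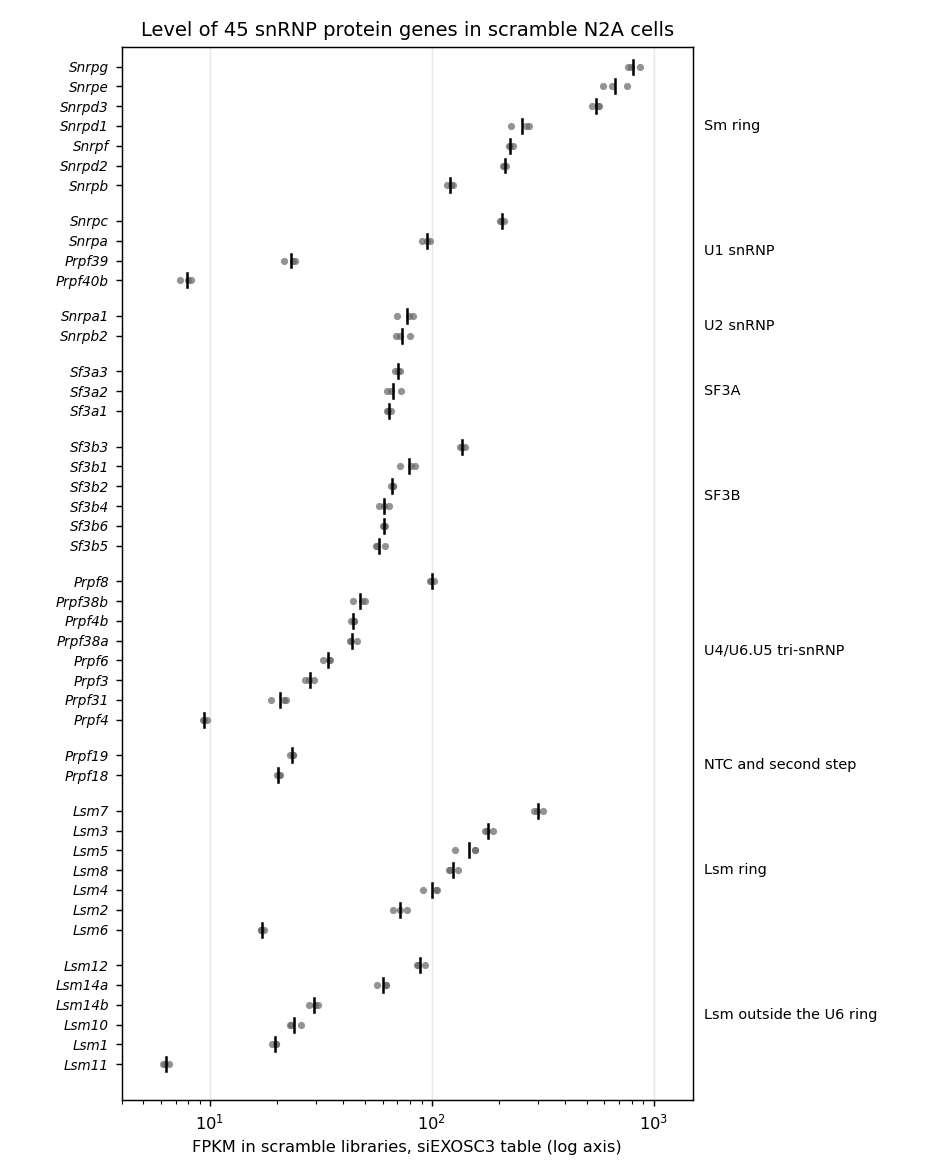
FPKM (log axis) of 45 of the 46 snRNP protein genes in the 3 scramble libraries of the siEXOSC3 comparison, grouped by particle or complex; points are libraries and the black tick is their mean. Sm ring genes run from 121 to 808 FPKM, and Lsm11 is lowest at 6.34 FPKM.

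The promoters of 5 of these genes are printed here, chosen for the results that turn on them. Snrpg is the most highly expressed gene and fell in siEXOSC3, as did Sf3a3. Prpf38b and Prpf38a are paralogs of which the former fell and the latter did not, and Prpf40b is the gene that rose in siDDX1. Each is the 250 bases before a RefSeq transcript start on GRCm38.p6, read 5′ to 3′ on the strand of the gene, and capitals mark matches of the motifs searched. No binding was measured in these data.
Snrpg (chr6:86371290-86371539, plus strand): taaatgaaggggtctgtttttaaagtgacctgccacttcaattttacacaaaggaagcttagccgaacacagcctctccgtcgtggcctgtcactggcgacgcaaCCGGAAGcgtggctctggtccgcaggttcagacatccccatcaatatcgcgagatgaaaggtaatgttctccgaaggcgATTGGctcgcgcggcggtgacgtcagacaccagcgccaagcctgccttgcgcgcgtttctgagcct
Sf3a3 (chr4:124714611-124714860, plus strand): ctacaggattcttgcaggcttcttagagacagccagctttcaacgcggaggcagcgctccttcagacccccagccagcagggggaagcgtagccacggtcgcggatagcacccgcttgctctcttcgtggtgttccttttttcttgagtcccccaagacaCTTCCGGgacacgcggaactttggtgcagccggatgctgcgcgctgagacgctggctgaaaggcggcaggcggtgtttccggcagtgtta
Prpf38b (chr3:108911730-108911979, minus strand): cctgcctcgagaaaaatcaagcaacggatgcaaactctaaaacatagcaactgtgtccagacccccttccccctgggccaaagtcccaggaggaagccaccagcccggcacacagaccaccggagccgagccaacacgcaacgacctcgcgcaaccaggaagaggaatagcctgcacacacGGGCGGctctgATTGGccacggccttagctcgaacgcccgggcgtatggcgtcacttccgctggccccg
Prpf38a (chr4:108579337-108579586, minus strand): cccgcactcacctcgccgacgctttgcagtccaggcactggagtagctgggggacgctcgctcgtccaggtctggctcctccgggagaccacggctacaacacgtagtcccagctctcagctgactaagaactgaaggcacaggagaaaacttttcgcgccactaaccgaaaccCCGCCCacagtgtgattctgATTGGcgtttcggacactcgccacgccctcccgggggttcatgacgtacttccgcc
Prpf40b (chr15:99294991-99295240, plus strand, the first of 2 starts listed): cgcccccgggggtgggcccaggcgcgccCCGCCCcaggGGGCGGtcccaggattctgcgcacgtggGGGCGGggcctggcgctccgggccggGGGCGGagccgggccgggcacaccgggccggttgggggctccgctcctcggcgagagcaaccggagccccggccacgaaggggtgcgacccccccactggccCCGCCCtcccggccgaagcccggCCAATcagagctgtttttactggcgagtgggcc

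The motifs searched on both strands were CCGGAAG (bound by ETS factors), GCATGCGC (NRF1), CCAAT (the CCAAT box), GGGCGG (the GC box of Sp1) and AAGATGGC (YY1). Promoters were at hand for 37 of the 46 genes. CCGGAAG was present in 13 of the 37 (35.1%), against 17.0% of the 8595 tested genes with a promoter and 7.83% of all 27025 genes with one of that length. It was in 6 of the 13 genes that fell and had a promoter and in 7 of the 24 others, Snrpg and Sf3a3 being among the former. The CCAAT box was in 40.5% of the 37, 41.1% of the tested genes and 37.5% of all genes, and the GC box in 59.5%, 65.7% and 35.4%. GCATGCGC was in 3 of the 37 (8.11%, Lsm2, Lsm8 and Lsm10), 5.61% of the tested genes and 2.56% of all genes. AAGATGGC was in 1 (2.70%, Lsm7), 2.56% and 1.83%. Prpf38b and Prpf38a both held a GC box and a CCAAT box near the start. Prpf40b held 5 GC boxes in the window shown. A match of letters is a description of sequence and not a site in use.

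After EXOSC3 depletion 16 of the 46 core snRNP protein genes fell, 0 rose and 30 did not pass the test (limma on log2(FPKM + 1), Benjamini-Hochberg adjusted p under 0.05). Of all 11242 genes tested in that comparison 15.7% fell and 16.7% rose, against 34.8% of the snRNP genes that fell. At an unadjusted p under 0.05 only 1 snRNP gene, Prpf40b, was higher and 21 were lower, beside 22.0% and 23.4% of all genes. All 3 siEXOSC3 libraries lay below all 3 scramble libraries for 21 of the 46 genes, where 25.9% of all genes did so. They lay above them for 2, Prpf40b and Lsm14b, where 23.8% of all genes did so. The log2 fold change was negative for 38 of the 46 genes (82.6%, against 51.9% of all genes). Its median was -0.17 over the 46 genes and -0.01 over all genes, and it ran from -0.52 for Lsm2 to 0.35 for Prpf40b. The falls were small, the 16 genes keeping between 70.3 and 81.8% of their scramble FPKM. The shares are set side by side as a description, since the genes were chosen by name and not at random. The 46 genes were also more highly expressed, with a median of 66.9 FPKM in scramble beside 14.1 over all genes. Among genes with a mean of at least 5 FPKM 18.7% fell and 15.7% rose, and 16 of the 46 fell. The part of expression level in the difference was not tested.

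By particle, the falls comprised 2 of 7 Sm ring genes, 1 of 5 U1 genes, 0 of 2 U2 genes, 2 of 3 SF3A genes, 2 of 6 SF3B genes, 5 of 8 tri-snRNP genes, 1 of the 2 Prp19 complex and second-step genes, 3 of 7 U6 Lsm ring genes and 0 of 6 Lsm genes outside that ring. The groups are too small for these shares to be set apart from one another, and no test of that was made. The median log2 fold change was lowest in SF3A (-0.38) and the tri-snRNP (-0.34), and it was close to 0 (-0.0007) for the Lsm genes outside the U6 ring.

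**Figure D2:**
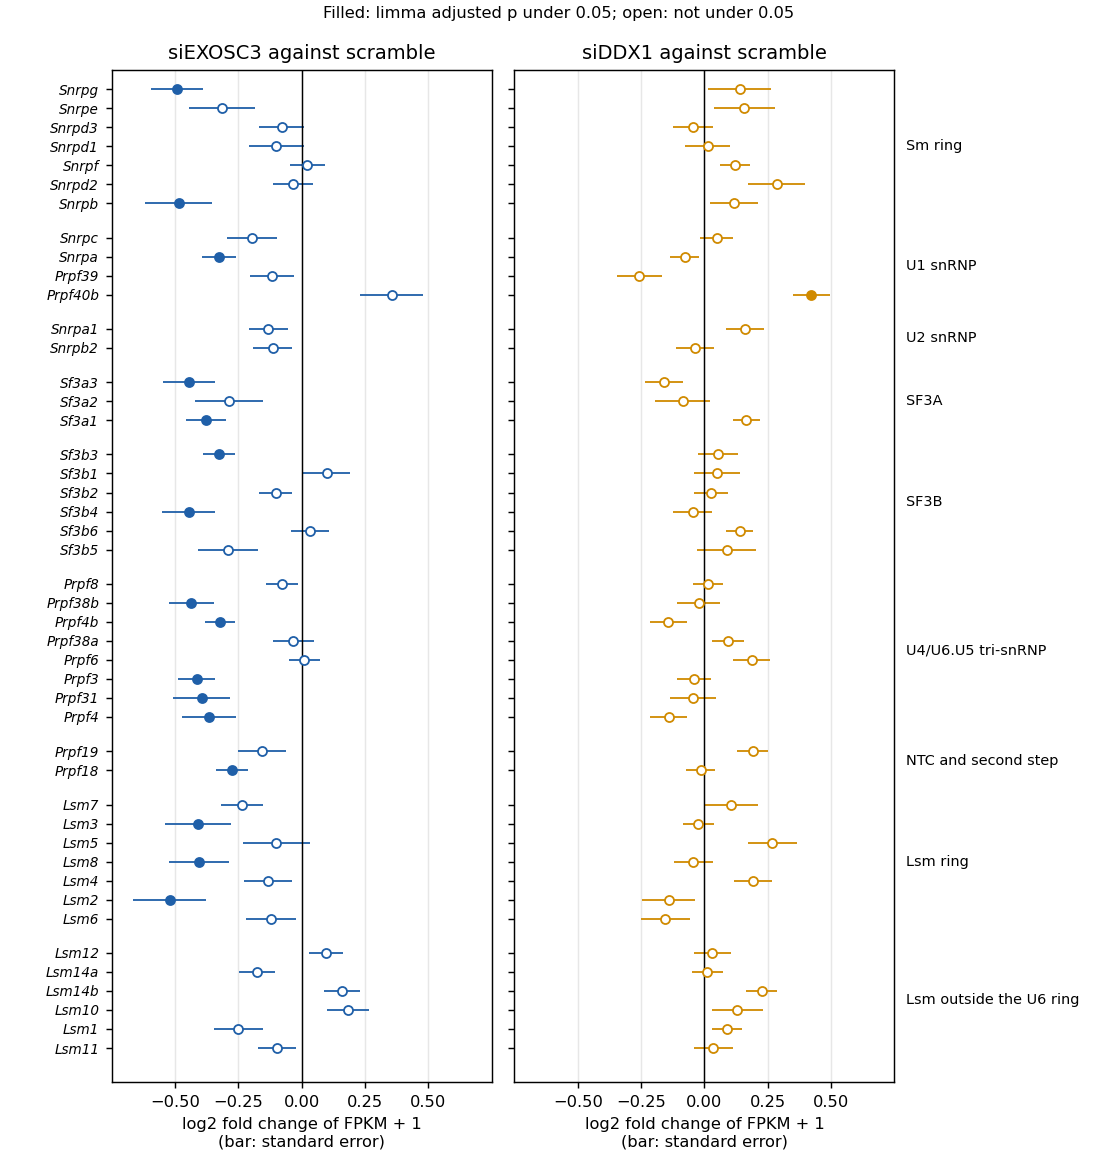
Log2 fold change of FPKM + 1 with its standard error for 45 of the 46 genes, in siEXOSC3 (left) and siDDX1 (right) against the same 3 scramble libraries; filled points have a limma adjusted p under 0.05. In siEXOSC3, 16 points are filled, all below 0; in siDDX1 only Prpf40b is filled, at 0.42.

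In the Sm ring, Snrpg went from 867, 788 and 769.6 FPKM in the scramble libraries to 651, 572 and 508 FPKM in the siEXOSC3 libraries (log2 fold change -0.49, SE 0.102, adjusted p = 0.0098). Snrpb went from 122, 117 and 124 to 100.1, 94.7 and 67.8 FPKM (log2 fold change -0.49, SE 0.133, adjusted p = 0.025). In both genes every knockdown library was below every scramble library, and for Snrpb siEXOSC3 replicate 3 was well below the other two. Snrpg lies at chr6:86321534-86328896 and Snrpb at chr2:129997150-130005139 (mm9, whole genes). Snrpe, at -0.32, did not pass the test (adjusted p = 0.10), but passed it with quantile normalization (adjusted p = 0.0285) and with the trend on GC content and length removed (adjusted p = 0.0472). The genes of SmD1, SmD2, SmD3 and SmF had log2 fold changes between -0.10 and 0.02 and overlapping groups, and their difference from Snrpg and Snrpb was not tested. Snrpd2, the gene of SmD2, passed as a fall with the trend on GC content and length removed (adjusted p = 0.0392). The call of Snrpb was lost without any 1 of the scramble replicates 1, 2 or 3 (adjusted p = 0.062 to 0.086) and without a filter on low FPKM (adjusted p = 0.0624), and that of Snrpg without scramble replicate 1 (adjusted p = 0.0501, with a range of 0.00287 to 0.0501 over all alternatives).

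Of the U1 genes Snrpa alone fell. It encodes a protein that binds a stem loop of U1 snRNA, and it went from 90.8, 95.5 and 97.9 to 77.04, 78.3 and 70.8 FPKM (log2 fold change -0.33, SE 0.0668, adjusted p = 0.0092), a call kept whichever library was left out. Its exons overlap those of BC024978 on the opposite strand, and the libraries were unstranded. Snrpb2, which encodes the related protein of the U2 snRNP, stood at 72.01, 79.6 and 68.7 FPKM in scramble and 68.9, 70.7 and 63.4 FPKM in siEXOSC3 with overlapping groups (log2 fold change -0.11, adjusted p = 0.27). The other U2 gene, Snrpa1, did not pass either (log2 fold change -0.13, adjusted p = 0.21). Snrpc had all 3 knockdown libraries below scramble but did not pass the test (log2 fold change -0.20, adjusted p = 0.16).

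Prpf40b encodes a relative of a protein of the yeast U1 snRNP. Prpf40b (chr15:99125518-99147449, mm9) stood at 7.34, 8.26 and 7.97 FPKM in scramble and 10.2, 8.55 and 12.6 FPKM in siEXOSC3. Its knockdown libraries were all above scramble and it had the highest log2 fold change of the 46 (0.35, SE 0.124), which did not pass the test (adjusted p = 0.058). It passed only when siEXOSC3 replicate 2, its lowest knockdown library, was left out (adjusted p = 0.0063, with a range of 0.00634 to 0.177 over all alternatives). Prpf39, another U1-associated protein gene, had a log2 fold change of -0.12 (adjusted p = 0.32).

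The SF3A and SF3B proteins hold the U2 snRNP at the branch site. Sf3a3 went from 72.05, 68.5 and 70.7 to 49.7, 60.6 and 45.1 FPKM (log2 fold change -0.45, SE 0.102, adjusted p = 0.014). Sf3a1 went from 65.5, 63.7 and 62.6 to 47.6, 54.5 and 45.1 FPKM (log2 fold change -0.38, SE 0.0790, adjusted p = 0.0098). The third subunit gene, Sf3a2, stood at 65.4, 62.7 and 72.8 FPKM in scramble and 51.2, 68.7 and 46.3 FPKM in siEXOSC3, where siEXOSC3 replicate 2 lay among the scramble values (log2 fold change -0.29, adjusted p = 0.13, and adjusted p = 0.0035 without that replicate, with a range of 0.00353 to 0.33 over all alternatives).

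In SF3B the genes that fell were Sf3b4 and Sf3b3. Sf3b4, an RNA-binding subunit, went from 61.1, 57.9 and 64.1 to 46.4, 50.3 and 37.7 FPKM (log2 fold change -0.45, SE 0.104, adjusted p = 0.015), and Sf3b3 from 141, 137 and 134 to 112, 112 and 104 FPKM (log2 fold change -0.33, SE 0.0623, adjusted p = 0.0072). Sf3b1, the large subunit that contacts the branch site and is often mutated in myeloid disease, stood at 80.3, 83.9 and 71.7 FPKM in scramble and 80.5, 78.1 and 94.7 FPKM in siEXOSC3, with overlapping groups (log2 fold change 0.10, adjusted p = 0.43). Sf3b2 (log2 fold change -0.10, adjusted p = 0.24), Sf3b5 (log2 fold change -0.29, adjusted p = 0.088) and Sf3b6 (log2 fold change 0.03, adjusted p = 0.75) did not pass the test either, but Sf3b5 passed as a fall with the trend on GC content and length removed (adjusted p = 0.0164) and without siEXOSC3 replicate 2 (adjusted p = 0.0267). The exons of Sf3b3 overlap those of Cog4 and the exons of Sf3b4 those of a noncoding gene, both on the opposite strand. Sf3a1 and Sf3b3 kept their calls whichever library was left out. Those of Sf3a3 and Sf3b4 were lost without scramble replicate 1 or 3, and that of Sf3a3 also without siEXOSC3 replicate 1 (adjusted p = 0.053 to 0.062).

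The tri-snRNP group held the most genes that fell (5 of 8), but it was the largest group, and SF3A had a higher share (2 of 3). The group counts Prpf38a, Prpf38b and Prpf4b, described below, with the tri-snRNP genes. Prpf3 (chr3:95634047-95659808), Prpf4 (chr4:62069831-62088024) and Prpf31 (chr7:3581587-3594088, all mm9) are among the genes for proteins bound to the U4/U6 duplex, and each of these named genes fell. Prpf3 went from 29.4, 27.99 and 26.9 to 20.5, 22.5 and 19.6 FPKM (log2 fold change -0.41, SE 0.0738, adjusted p = 0.0057). Prpf31 went from 21.6, 18.8 and 21.9 to 15.9, 17.9 and 13.1 FPKM (log2 fold change -0.40, SE 0.113, adjusted p = 0.03), and Prpf4 from 9.65, 9.38 and 9.31 to 6.94, 8.42 and 6.12 FPKM (log2 fold change -0.37, SE 0.106, adjusted p = 0.031). Mutations in PRPF3, PRPF31 and PRPF8 are known in retinitis pigmentosa. The U5 genes Prpf8 (log2 fold change -0.08, adjusted p = 0.37) and Prpf6 (log2 fold change 0.01, adjusted p = 0.91) did not pass the test, and Prpf6 stood at 101% ± 2.33 of its scramble FPKM (SD, n = 3). Prpf3 kept its call whichever library was left out. Prpf31 lost it without scramble replicate 1 or 3 or siEXOSC3 replicate 1, and Prpf4 lost it without any of these, scramble replicate 2 or siEXOSC3 replicate 3 (adjusted p = 0.054 to 0.11). Both also lost it without a filter on low FPKM (adjusted p = 0.0664 for Prpf31 and 0.0688 for Prpf4).

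Prpf38a and Prpf38b encode related proteins, of which PRPF38A enters the spliceosome with the tri-snRNP. Prpf38b went from 48.4, 49.95 and 43.98 to 35.2, 31.3 and 38.2 FPKM (log2 fold change -0.44, SE 0.0871, adjusted p = 0.0084), while Prpf38a stood at 45.8, 43.3 and 42.6 FPKM in scramble and 44.5, 46.05 and 38.4 FPKM in siEXOSC3 with overlapping groups (log2 fold change -0.03, adjusted p = 0.77). The transcripts were of like level in scramble, and the difference between their changes was not tested. Both promoters printed above held a GC box and a CCAAT box. In Prpf38b siEXOSC3 replicate 2 was the lowest library, while in the other 15 genes that fell it was replicate 3. Prpf4b, a kinase that phosphorylates tri-snRNP proteins, went from 44.4, 44.4 and 43.4 to 35.8, 35.5 and 33.8 FPKM (log2 fold change -0.32, SE 0.0594, adjusted p = 0.0064). Both falls were called whichever library was left out. Prpf18 went from 20.6, 20.5 and 20.1 to 17.2, 16.7 and 16.1 FPKM (log2 fold change -0.27, SE 0.0626, adjusted p = 0.013), a call lost without scramble replicate 1 (adjusted p = 0.0661, with a range of 0.0117 to 0.0661). Prpf19 did not pass the test (log2 fold change -0.16, adjusted p = 0.22).

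In the U6 ring, Lsm2 (chr17:35118807-35122836, mm9) had the largest fall of the 46, from 72.2, 66.8 and 77.1 to 52.3, 60.8 and 38.8 FPKM (log2 fold change -0.52, SE 0.145, adjusted p = 0.027). Lsm8, the subunit that sets the nuclear ring apart from the cytoplasmic one, went from 132, 119.98 and 121 to 95.1, 110.4 and 77.8 FPKM (log2 fold change -0.41, SE 0.117, adjusted p = 0.031). Lsm3 went from 178, 173 and 189 to 136, 165 and 109.8 FPKM (log2 fold change -0.41, SE 0.131, adjusted p = 0.043). In these 3 genes siEXOSC3 replicate 3 was the lowest library and replicate 2 the highest, and the libraries spread more widely than in Prpf3 or Sf3b3. Lsm4, Lsm5, Lsm6 and Lsm7 did not pass the test, with log2 fold changes of -0.13, -0.10, -0.12 and -0.24, and Lsm7 was the nearest to it (adjusted p = 0.056). Lsm7 passed with quantile normalization (adjusted p = 0.0241) and with the trend on GC content and length removed (adjusted p = 0.00515), Lsm4 with that trend removed (adjusted p = 0.0472) and Lsm6 without siEXOSC3 replicate 2 (adjusted p = 0.0426). The calls of Lsm2, Lsm3 and Lsm8 were each lost without scramble replicate 1, 2 or 3 or siEXOSC3 replicate 1, and that of Lsm3 also without siEXOSC3 replicate 3 (adjusted p = 0.052 to 0.13). All 3 were also lost without a filter on low FPKM (adjusted p = 0.0677 for Lsm2, 0.0924 for Lsm3 and 0.0689 for Lsm8), and that of Lsm3 with no intensity trend in the fit (adjusted p = 0.0559).

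The 6 Lsm genes outside the U6 ring did not pass the test in siEXOSC3, although Lsm1 (adjusted p = 0.0211) and Lsm14a (adjusted p = 0.031) passed as falls without siEXOSC3 replicate 2. Lsm1, of the cytoplasmic decay ring, stood at 19.1, 19.9 and 19.9 FPKM in scramble and 17.2, 18.2 and 13.96 FPKM in siEXOSC3, all knockdown libraries being below scramble (log2 fold change -0.25, adjusted p = 0.079). The U7 genes had log2 fold changes of 0.18 (Lsm10) and -0.10 (Lsm11). Lsm14a stood at 61.99, 61.9 and 56.5 FPKM in scramble and 51.9, 56.7 and 50.6 FPKM in siEXOSC3 (log2 fold change -0.18, adjusted p = 0.087), and its paralog Lsm14b at 30.6, 28.1 and 29.6 FPKM in scramble and 30.6, 34.5 and 33.96 FPKM in siEXOSC3 (log2 fold change 0.16, adjusted p = 0.12), the nearest values of the groups being all but equal. Lsm12, an Sm-like protein gene, had a log2 fold change of 0.10 (adjusted p = 0.30).

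**Figure D3:**
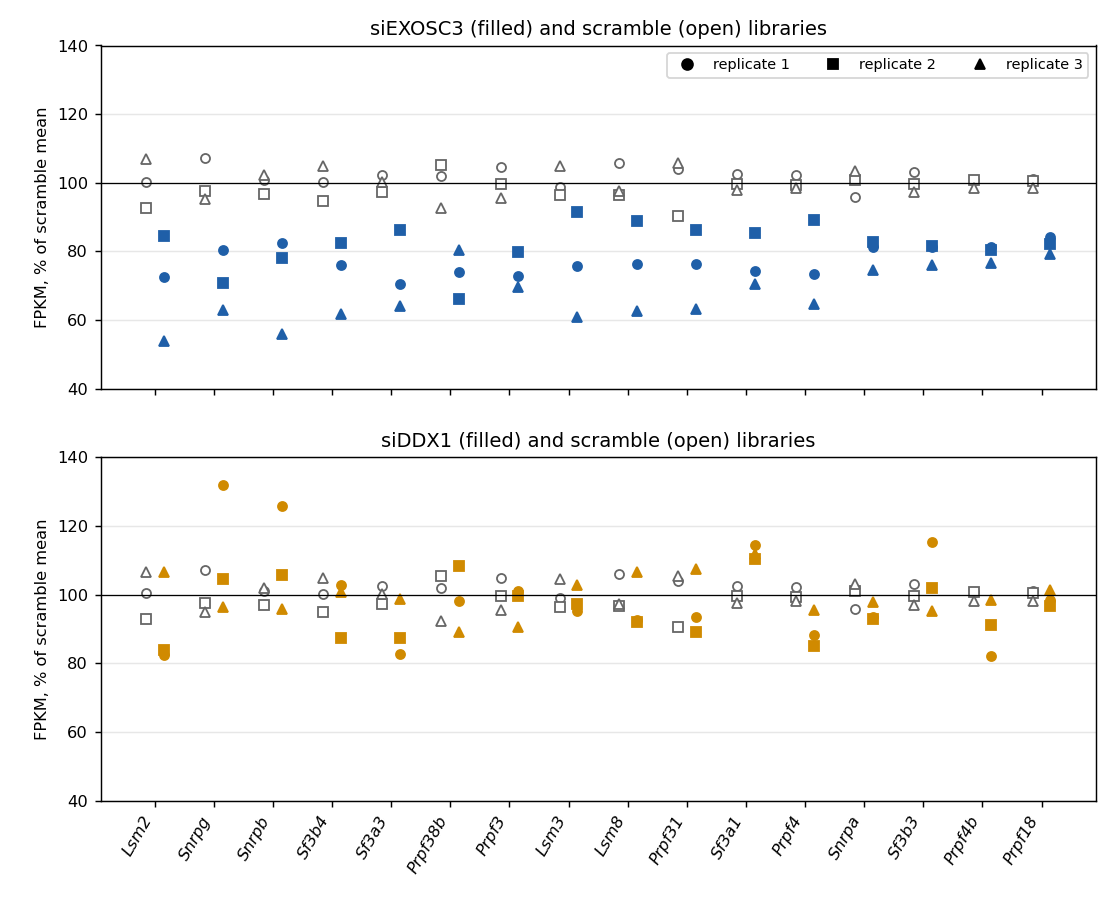
FPKM of the 16 genes that fell in siEXOSC3, as a percentage of their scramble mean, in each siEXOSC3 library (top) and siDDX1 library (bottom) beside the same 3 scramble libraries (open); shapes give the replicate number. All siEXOSC3 points lie below the scramble points, with replicate 3 (triangle) lowest in most genes, while siDDX1 points scatter around 100%.

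The siEXOSC3 libraries did not contribute alike. Replicate 3 was the lowest of the 3 for 35 of the 46 genes (76.1%), while it was the lowest for 42.9% of all genes tested. The median deviation of the 46 genes from their scramble mean, on the log2 scale, was -0.14 in replicate 1, -0.10 in replicate 2 and -0.31 in replicate 3, where all genes had medians between -0.02 and -0.01. Replicate 3 also had the lowest Exosc3 level (6.01 FPKM, beside 6.84 and 7.68), and whether these go together was not tested. Without replicate 3 the number of snRNP genes that fell was 14, when 13.6% of all genes fell, and the median log2 fold change of the 46 was -0.14. Without scramble replicate 1, 2 or 3 the number was 6, 11 or 8, when 5.17%, 8.27% or 7.15% of all genes fell. Without siEXOSC3 replicate 1 it was 10 (7.73% of all genes) and without siEXOSC3 replicate 2 it was 21 (22.3%). In each of these the other direction held 0 genes, except for Prpf40b without siEXOSC3 replicate 2. Only Snrpa, Sf3a1, Sf3b3, Prpf3, Prpf38b and Prpf4b, 6 of the 16, were called whichever library was left out. N2A markers moved the other way in siEXOSC3, with 6 of the 10 rising, and the part of such shifts in the falls described here was not tested.

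Other genes of the splicing machinery, listed by the particle or step their products are known for, had negative log2 fold changes in siEXOSC3 for 28 of 33 further snRNP proteins, 23 of 26 proteins of the Prp19 complex and the catalytic steps, 20 of 23 genes for snRNP assembly and snRNA maturation and 8 of 11 minor spliceosome proteins. Of the further snRNP proteins 10 fell (30.3%) and 2 rose, where 15.7% of all genes fell and 16.7% rose. The largest falls were in Phf5a, a small SF3B subunit (log2 fold change -0.56, adjusted p = 0.0072), Ddx46, a helicase of the U2 snRNP (log2 fold change -0.56, adjusted p = 0.0037), Snrnp40 of the U5 snRNP (log2 fold change -0.50, adjusted p = 0.0059) and Sart3, which recycles U4/U6 (log2 fold change -0.35, adjusted p = 0.021). Of the Prp19 complex and catalytic proteins 9 fell (34.6%) and 0 rose, led by Ppil1 (log2 fold change -0.54, adjusted p = 0.012) and Cdc5l (log2 fold change -0.53, adjusted p = 0.004). Of the assembly and maturation genes 8 fell (34.8%) and 2 rose. Smn1, which loads the Sm ring onto snRNA, fell from 105 ± 5.50 to 71.6 ± 11.5 FPKM (log2 fold change -0.56, adjusted p = 0.0074, SD over n = 3), and its partner Ddx20 (Gemin3) fell as well (log2 fold change -0.51, adjusted p = 0.023). Toe1, which trims snRNA tails, and Larp7, a U6 and 7SK binding protein, fell too (log2 fold change -0.56, adjusted p = 0.023 for Toe1 and log2 fold change -0.44, adjusted p = 0.022 for Larp7). Of the minor spliceosome proteins 2 fell (18.2%) and 1 rose. The medians of these lists lay between -0.28 and -0.14, beside -0.01 for all genes and -0.17 for the 46 core genes.

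After DDX1 depletion 1 of the 46 genes, Prpf40b, rose, 0 fell and 45 did not pass the test (limma, adjusted p under 0.05), so that 2.17% of the snRNP genes rose where 5.61% of all 11104 genes rose and 5.03% fell. At an unadjusted p under 0.05, 9 were higher and 1, Prpf39, was lower, beside 15.1% and 15.01% of all genes. All 3 siDDX1 libraries lay above scramble for 11 of the 46 genes, where 17.0% of all genes did so. They lay below for 1, Prpf4, where 17.8% of all genes did so. The median log2 fold change was 0.03 over the 46 genes and -0.0006 over all genes, and 18 of the 46 were negative. The side of this median depended on the scaling, since with quantile normalization it was -0.0272, beside -0.00863 over all genes. Prpf40b went from 7.28, 8.19 and 7.88 to 11.1, 10.7 and 10.4 FPKM (log2 fold change 0.42, SE 0.0737, adjusted p = 0.014), or 138% ± 4.62 of scramble (SD, n = 3). The call of Prpf40b was lost without scramble replicate 1 (adjusted p = 0.079), scramble replicate 3 (0.0636) or siDDX1 replicate 2 (0.0552).

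The next highest values in siDDX1 were those of Snrpd2 (log2 fold change 0.29, adjusted p = 0.13), Lsm5 (log2 fold change 0.27, adjusted p = 0.11) and Lsm14b (log2 fold change 0.23, adjusted p = 0.051), and the lowest was that of Prpf39 (log2 fold change -0.26, adjusted p = 0.094). Lsm14b stood at 30.4, 27.8 and 29.3 FPKM in scramble and 33.95, 35.5 and 33.3 FPKM in siDDX1, all knockdown libraries being higher, and it missed the threshold narrowly. Lsm14a stood at 61.5, 61.5 and 55.8 FPKM in scramble and 59.5, 60.6 and 60.05 FPKM in siDDX1 (log2 fold change 0.01, adjusted p = 0.92). Snrpd2 was highest in siDDX1 replicate 1 (311, 241 and 227 FPKM, beside 211, 209 and 213 in scramble), as were Snrpg and Snrpb. The 95% interval of the log2 fold change from limma lay within 0.5 of 0 for 44 of the 46 genes, the others being Prpf40b and Snrpd2. The falls in siEXOSC3 ran from -0.27 to -0.52, so this bound does not set apart changes of their size. The numbers of genes called depended on siDDX1 replicate 3. Without it 7 of the genes rose and 5 fell, when 16.4% of all genes rose and 15.4% fell. Replicate 3 also had the highest Ddx1 level of the siDDX1 libraries (34.8 FPKM, beside 28.05 and 28.7), and whether these go together was not tested.

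The knockdowns were compared with the same 3 scramble libraries, so the 2 sets of changes are not independent, and the difference between them was not tested because the tables had been scaled separately. Side by side, the log2 fold changes in siEXOSC3 and siDDX1 were -0.52 and -0.14 for Lsm2, -0.49 and 0.14 for Snrpg, -0.45 and -0.16 for Sf3a3, -0.44 and -0.02 for Prpf38b, and -0.41 and -0.04 for Prpf3. Sf3a1 was below scramble in all siEXOSC3 libraries and above it in all siDDX1 libraries (64.97, 63.2 and 61.8 FPKM in scramble and 72.5, 69.97 and 70.8 FPKM in siDDX1, log2 fold change 0.16, adjusted p = 0.083). Prpf40b and Lsm14b were above scramble in all libraries of both knockdowns, and Prpf4 below in both. In siDDX1, where 5.61% of all genes rose and 5.03% fell, 3 of 33 other snRNP proteins rose and 0 fell (limma), of 26 Prp19 complex and catalytic proteins 1 rose and 2 fell (Ppil1, log2 fold change -0.43, adjusted p = 0.009, and Cdc5l, log2 fold change -0.24, adjusted p = 0.044), of 23 assembly proteins 1 rose, and of 12 minor spliceosome proteins 0 passed.

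**Figure D4:**
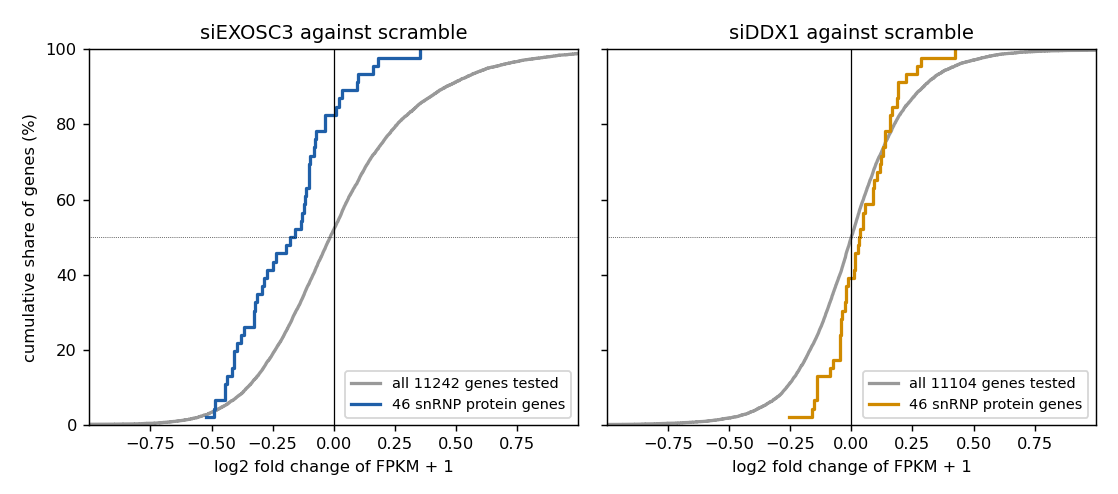
Cumulative share of genes (%) against log2 fold change of FPKM + 1, for the 46 snRNP protein genes and for all genes tested, in siEXOSC3 (left) and siDDX1 (right). In siEXOSC3 the snRNP curve lies to the left of all genes (medians -0.17 and -0.01); in siDDX1 it is steeper and slightly to the right near its middle (medians 0.03 and -0.0006, the former turning to -0.0272 with quantile normalization).

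Snrpn, which the rule left out, encodes a relative of SmB found mainly in brain and heart, and shares its transcript with Snurf. It went from 8.85, 8.93 and 8.52 FPKM in scramble to 16.4, 14.5 and 18.02 FPKM in siEXOSC3 (log2 fold change 0.82, SE 0.0878, adjusted p = 0.001), while Snrpb fell in the same libraries. In siDDX1 it stood at 9.89, 10.1 and 8.79 FPKM and did not pass the test (log2 fold change 0.12, adjusted p = 0.34).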

How the data were processed

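Total RNA from N2A cells was depleted of ribosomal RNA and made into unstranded libraries (NEBNext Ultra II Nondirectional). The authors mapped reads with TopHat2 2.1.0 on mm9, used SAMtools, and computed FPKM per gene and library with Cuffdiff 2.2.1, and they deposited 1 FPKM table per knockdown, each with the same 3 scramble libraries. The gene annotation and library normalization given to Cuffdiff are not given in the sources used here. For the 46 genes the scramble values of the tables differed by a factor of 1.01 in each library, so every test stayed within a table. FPKM hold no counts, so no count model, confidence interval from counts or detection floor was used.

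Genes averaging at least 1 FPKM over the 6 libraries of a table were put on the log2(FPKM + 1) scale and fitted with limma 3.58.1 in R 4.3.3 (lmFit, eBayes with an intensity trend, no covariate), two-sided, with Benjamini-Hochberg adjustment over all genes and a threshold of 0.05. Fold changes are on that scale and understate changes of low genes. Adjusted p-values printed for single genes are from this fit, or from the same fit under the alternative named beside them. The smallest p of an exact permutation test of 3 against 3 is 0.1. On data simulated from each comparison with 200 genes changed by 1 on the log2 scale, 195 of 200 (siEXOSC3, 11242 genes) and 194 of 200 (siDDX1, 11104 genes) were called, with 9 false calls in each. That change is larger than any fall of the genes described, so the recovery does not speak for falls of their size.

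The genes described, the lists and the tests were chosen with earlier results of these data known. Per-library values were given for up to 12 called genes with the largest change, for the highest and lowest gene of each particle and for paralogs, and from each other list at most 4 called genes were named in each knockdown. Outside this, Prpf4b, Sf3a2, Sf3b1 and Lsm1 in siEXOSC3, Sf3a1 and Snrpd2 in siDDX1, and Zmat2, Gemin8, Snupn and Dnajc8 in siEXOSC3 were chosen after their values were seen. The labels do not tie libraries of the same replicate number to each other, and the number was not used as a pairing. Positions, exonic length and overlaps are from GENCODE vM1 on NCBIM37 (mm9), which held 22045 of the 24318 symbols, with 2 genes under older names (Lsm8 as Naa38, Sf3b6 as 0610009D07Rik). Copies were searched with minimap2 2.31. Promoters are from RefSeq (GRCm38.p6). Figures were drawn with matplotlib 3.10.9. Each of the following was changed in turn: the pseudocount (0.1), the filter (none, or a mean of 5 FPKM), the scaling (quantile normalization, or centring on each library's median), the intensity trend (none), the replicate block (added), the threshold (0.01), the removal of a loess trend on GC content and length (span 0.3), and the libraries (each left out). A gene of the 46 enters the counts and medians but is not reported here by name. The DRIP-seq data of the study are not analysed here.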

Additional observations from a re-analysis of the deposited data

Results flagged for a closer look

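Sf3a1 lay below scramble in every siEXOSC3 library (log2 fold change -0.38) and above it in every siDDX1 library (0.16). Lsm1 did likewise, with -0.25 in siEXOSC3 and 0.0882 in siDDX1. Each is noted because all libraries of one knockdown moved opposite to all libraries of the other against the same scramble libraries. The difference was not tested, and of these 4 values the Sf3a1 fall in siEXOSC3 alone passed the test with all libraries. The Sf3a1 rise passed without siDDX1 replicate 3 (limma adjusted p = 0.049), and the Lsm1 fall without siEXOSC3 replicate 2 (limma adjusted p = 0.0211).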

How the results depend on the processing

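In siEXOSC3 the number of snRNP genes that fell (16, when 15.7% of all genes fell) was 10 without a filter on low FPKM (7.63% of all genes) and 7 at an adjusted p under 0.01 (4.27%). It was 13 with the replicate block (9.42%), without Lsm2, Lsm3, Prpf31 and Prpf4 (adjusted p = 0.0562 to 0.0737) and with Snrpe. It was 18 with quantile normalization (16.6% of all genes), where Lsm7 and Snrpe joined. With GC and length removed it was 21 (19.6% of all genes), where these, Lsm4, Sf3b5 and Snrpd2 joined. Under the other settings that used all libraries it was 15 to 16 (13.5 to 18.7% of all genes). Leaving out each library gave 6 to 21 that fell (5.17 to 22.3% of all genes) and 0 to 1 that rose (9.1 to 21.2%). In siDDX1 the number that rose was 1, when 5.61% of all genes rose. It was 2 with a mean of at least 5 FPKM (6.23%), with quantile normalization (5.21%) and with centring on the median (6.73%), where Lsm14b joined Prpf40b. It was 2 with the replicate block (9.77%, Lsm5 joined) and with GC and length removed (6.23%, Prpf38a joined). At an adjusted p under 0.01 it was 0 (0.901%). Leaving out each library gave 0 to 7 that rose (0.856 to 16.4% of all genes) and 0 to 5 that fell (0.522 to 15.4%). The median change in siDDX1 was -0.0272 with quantile normalization, 0.0582 with centring, and 0.00748 to 0.0618 with 1 library left out. The causes were not tested. Over all alternatives, single snRNP genes lost a call 51 times and gained one 14 times in siEXOSC3, and lost one 4 times and gained one 16 times in siDDX1, and no called value changed sign. Same-numbered scramble and knockdown libraries had correlations of their deviations from the group means, for replicates 1, 2 and 3, of 0.03, -0.31 and -0.13 in siEXOSC3 and -0.01, 0.38 and 0.37 in siDDX1, where replicates 2 and 3 but not 1 correlated best with their own number. Over all genes the block gave 1085 that rose and 808 that fell in siDDX1, in place of 623 and 559, and 1390 and 1059 in siEXOSC3, in place of 1877 and 1767. FPKM give no counting error with which to judge the lowest genes.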

Other observations

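The lists of neighbouring genes held a few rises as well. The largest in siEXOSC3 was that of Snupn, of snRNP assembly (log2 fold change 0.42, limma adjusted p = 0.02). Dnajc8, of the further snRNP proteins, also rose there (log2 fold change 0.24, limma adjusted p = 0.025). In siEXOSC3 Scnm1, of the minor spliceosome, went from 24.7 ± 1.52 to 28.9 ± 1.12 FPKM (log2 fold change 0.22, limma adjusted p = 0.041), while Rbm48 (log2 fold change -0.61, adjusted p = 0.003) and Rnpc3 (-0.31, adjusted p = 0.03) of the same spliceosome fell. In siDDX1 Zmat2 (0.28, adjusted p = 0.021) and Snrnp27 (0.23, adjusted p = 0.048) of the tri-snRNP, U2af2 (0.21, adjusted p = 0.045), which binds the polypyrimidine tract, Ppie (0.29, adjusted p = 0.02) and Gemin8 of the SMN complex (0.38, adjusted p = 0.037) rose. Of these Zmat2 (0.25, adjusted p = 0.037) and Gemin8 (0.25, adjusted p = 0.046) also rose in siEXOSC3, and the comparisons share their scramble libraries. None of these genes was among the 46.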
